A study of Mus musculus with 6 samples.

Results

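The genes examined here are 10 transcription factors that mark mesenchymal identity or drive the epithelial-to-mesenchymal transition (EMT): *Prrx1*, *Prrx2*, *Twist1*, *Twist2*, *Snai1*, *Snai2*, *Zeb1*, *Zeb2*, *Tcf21* and *Tbx15*. They were chosen by name, by a rule that does not use their values, though with earlier results of these data known. Each matched 1 of the 43346 genes in the table of counts. RNA was measured in primary mouse adult fibroblasts (MAFs) grown from ear tissue of female, adult C57BL6/J mice (the number of mice and any pooling are not given), with 3 control and 3 senescent samples. Control MAFs were sham irradiated. Senescent MAFs received 20 Gy of X-rays and were kept in culture for 21 more days. The time that control cells were kept is not given in the sources used here. Both groups were wild type, were grown at 3% oxygen, were used between passages 3 and 8, and were treated with 100 nM dexamethasone, a glucocorticoid that synchronizes cellular clocks, for 2 hours. RNA was collected 12 hours later, and the values describe that single time point.

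EMT is the process by which epithelial cells lose their junctions and take on the shape and motility of mesenchymal cells. Snail (*Snai1*), Slug (*Snai2*), ZEB1 and ZEB2 are zinc finger repressors that bind short E-box sequences in epithelial genes such as *Cdh1*, and the basic helix-loop-helix (bHLH) TWIST proteins act with them. Fibroblasts are mesenchymal already, and in them these factors help to set the connective tissue program. So do the homeobox proteins PRRX1 and PRRX2, the bHLH protein TCF21 and the T-box protein TBX15, which also mark the embryonic origin of the cells.

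Total counts were between 50288454 and 82229553 per library. Senescent replicate 3 stood apart from the other senescent samples. Its squared count differences from senescent replicates 1 and 2 were, at the median, 12.7 and 16.3 times what sampling noise gives, against 2.14 times between replicates 1 and 2. Control replicate 1 also differed more from control replicates 2 and 3, at 4.63 and 4.13 times, than these did from each other, at 1.75 times. Senescent replicate 3 also had fewer counts from GC-rich genes. Genes with a GC content from 55% to below 60% in their longest transcript had a median of 75.0% of the level in the other senescent samples, and those below 45% had 119% (over genes whose mean count was 100 or more). The labels do not say whether the samples of a group came from separate cultures, so p-values measure the spread between these samples, which may be technical. Fibroblast markers were present throughout. Summed over 10 genes they were at 17617 to 19708 CPM (TMM-scaled counts, relative to the size of the library) in control and 4769 to 5785 CPM in senescent samples. In senescent cells 4 of them were higher and 5 lower, with mean levels of 4434 and 763 CPM for *Col1a1* and of 5611 and 1530.3 CPM for *Col1a2* in control and senescent samples. Together with *Col3a1* (3895 and 971 CPM) and *Col6a1* (3931 and 347 CPM), these made up most of the sum, which thus follows collagen genes. The 4 higher markers were *Fap*, *Dcn*, *Thy1* and *Lum*, with log2 fold changes of 3.94, 3.50, 1.47 and 0.85. The median log2 fold change of the 10 markers was -0.21. Of 10 chondrocyte markers, 9 were tested and all 9 were lower in senescent cells, with sums of 5380.1 to 5924 CPM in control and 368 to 454 CPM in senescent samples. *Col2a1* averaged 2716 and 168 CPM, and *Acan* 1853 and 131 CPM. The sums of the keratinocyte, endothelial, macrophage, skeletal muscle, and melanocyte and Schwann cell markers were at most 97.5 CPM in any sample. Endothelial markers summed to 2.66 to 3.06 CPM in control and 14.4 to 16.2 CPM in senescent samples, with 5 of 8 tested and all 5 higher, and macrophage markers to 6.12 to 6.82 and 14.3 to 16.6 CPM, with 5 of 7 tested and all 5 higher. Markers that are scarce in control cells can pass the count filter through senescent samples alone, so these counts are not read as a gain of a cell type. Of all tested genes, 36.2% were called higher and 34.1% lower by the same rule, given below. *Myod1*, a muscle regulator, had 0 counts in each control sample and 6, 3 and 10 counts in senescent replicates 1, 2 and 3. The pigment cell gene *Tyr* had 0 counts in each control and 1 count in each senescent sample, while *Dct* had 3, 0 and 1 counts in control and 0 in senescent samples. *Sox10*, of the same list, had 0 counts in each control sample and 20, 34 and 8 counts in senescent samples. *Cldn5* and *Pax7* were also at 0 in control samples, and *Myf5* in senescent samples. Muscle markers summed to 15.6 to 20.9 and 15.1 to 27.8 CPM, and melanocyte and Schwann cell markers to 4.10 to 4.45 and 3.30 to 3.77 CPM. The part of other cell types in the results below was not tested. In bulk RNA, fewer cells of a type and less RNA per cell cannot be told apart.

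Promoter sequences are shown for the factor with the largest increase and the factor with the largest decrease, because they held the letters of motifs that were searched for. RefSeq promoter sequences (GRCm38.p6, the assembly of mm10) were found for 7 of the 10 genes, in 10 windows of 250 bases before an annotated start. *Snai2*, *Zeb1* and *Tbx15* had none. The motifs were the E-box of BMAL1 (CACGTG), the E-box core known for Snail and ZEB proteins (CAGGTG) and the AP-1 motif (TGANTCA), on both strands. Overlapping matches were allowed, and the matches found did not overlap. Capitals mark the matches. The *Snai1* window lies on the plus strand at chr2:167537945-167538194, and the *Zeb2* window on the minus strand at chr2:45110278-45110527, before the most downstream of 4 annotated starts.
Snai1: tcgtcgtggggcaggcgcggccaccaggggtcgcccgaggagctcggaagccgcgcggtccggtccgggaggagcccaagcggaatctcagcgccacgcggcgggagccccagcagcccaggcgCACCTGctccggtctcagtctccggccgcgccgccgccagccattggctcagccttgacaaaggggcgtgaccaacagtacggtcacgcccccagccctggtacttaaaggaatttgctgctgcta
Zeb2: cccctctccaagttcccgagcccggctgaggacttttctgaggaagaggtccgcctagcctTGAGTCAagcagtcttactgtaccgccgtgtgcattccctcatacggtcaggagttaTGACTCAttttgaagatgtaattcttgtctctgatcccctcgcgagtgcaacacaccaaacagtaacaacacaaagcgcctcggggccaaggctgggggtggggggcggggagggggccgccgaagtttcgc
The match to CAGGTG in *Snai1* is on the other strand and begins 126 bases before the start. Among 32851 windows of all genes, 17.2% held this motif. The *Zeb2* window held 2 matches to TGANTCA, which begin 189 and 132 bases before the start, and 6.75% of all windows held at least 1. The other 8 windows, including the remaining 3 of *Zeb2*, held none of the 3 motifs. CACGTG occurred in none of the 10 windows and in 6.02% of all windows. These matches describe letters in these windows only.

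The factors moved in both directions. Of the 10, 9 had enough counts for a test. In senescent cells *Zeb2*, *Zeb1* and *Twist1* were higher (3 factors), and *Snai1*, *Snai2*, *Prrx2*, *Twist2* and *Tbx15* were lower (5 factors). A change was called where p was under 0.05 after Benjamini-Hochberg adjustment over all 17589 tested genes, from the quasi-likelihood test in edgeR. By the same rule 70.3% of all tested genes were called, 36.2% higher and 34.1% lower, so a call alone does not set these factors apart. Past a 2-fold change with p under 0.05 before adjustment, the threshold of the study's methods, were *Zeb2* among the higher and *Snai1*, *Snai2* and *Prrx2* among the lower factors. That makes 4 of 9, where 30.1% of all tested genes passed. The median log2 fold change of the 9 factors was -0.40, beside 0.0085 over all tested genes. In each of the 9 factors the control and senescent values did not overlap, as in 75.4% of all tested genes.

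**Figure D1:**
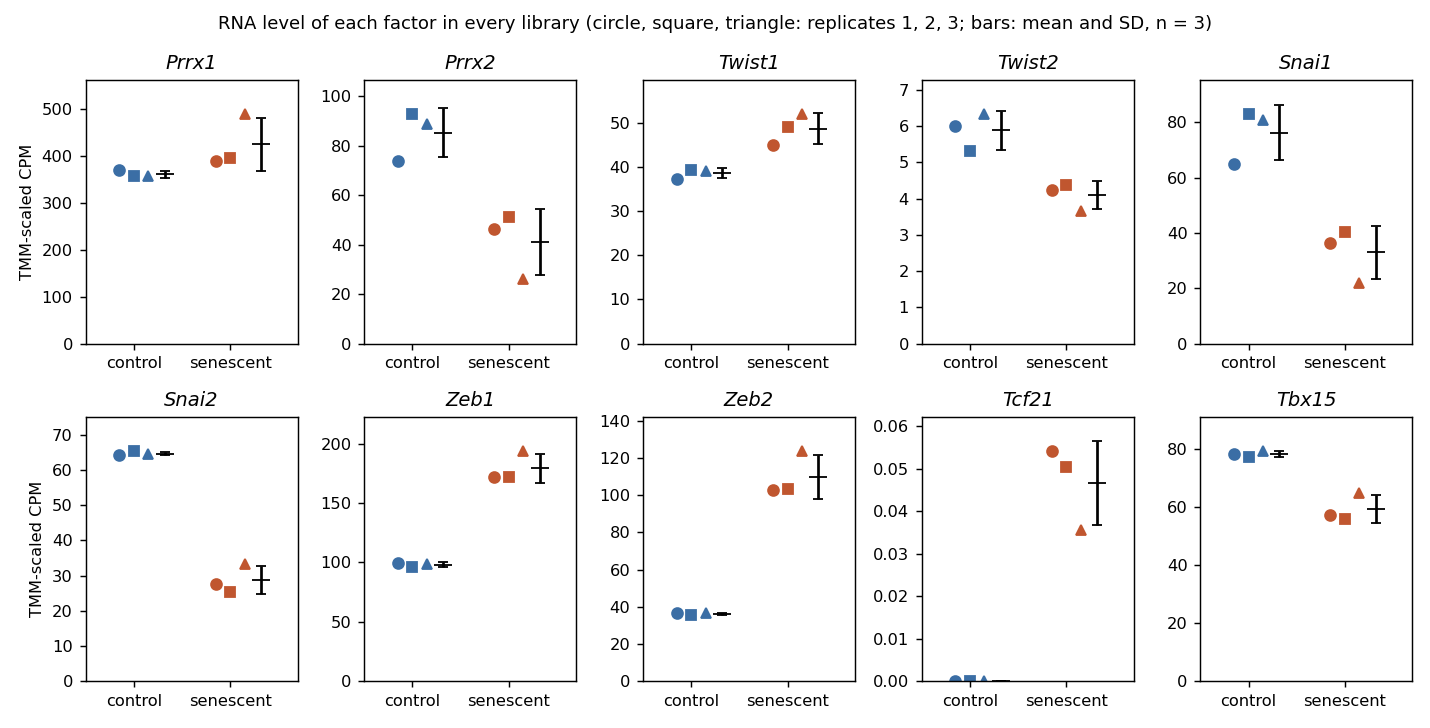
TMM-scaled CPM (vertical axes, each starting at 0) of the 10 factors in the 3 control and 3 senescent libraries, with the mean and SD of each group beside the points. *Zeb1*, *Zeb2*, *Twist1* and *Prrx1* lie higher in all senescent libraries, the other tested factors lie lower, and *Prrx2* and *Snai1* are lowest in senescent replicate 3.

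The *Zeb* genes, which encode large repressors with zinc fingers near both ends, were both higher in senescent cells. *Zeb2* (ENSMUSG00000026872, chromosome 2 of mm10 from 44983634 to 45117395) was at 36.5, 35.4 and 36.6 CPM in control replicates 1, 2 and 3 and at 103, 103 and 124 CPM in senescent replicates 1, 2 and 3. It rose 3.04-fold (log2 fold change 1.60 ± 0.084 SE, adjusted p = 1.44e-06 in edgeR). All senescent samples lay far above all control samples, and senescent replicate 3 was the highest. *Zeb1* (ENSMUSG00000024238, chromosome 18 from 5591860 to 5775467) was at 99.8, 95.9 and 98.7 CPM in control and at 172, 172 and 194 CPM in senescent samples. It rose 1.83-fold (log2 fold change 0.87 ± 0.065 SE, adjusted p = 1.08e-05 in edgeR), below the limit of a 2-fold change. The gene *Zeb2os*, which overlaps *Zeb2* on the opposite strand by 653 exonic bases, had 57 to 138 counts per library, against 1793 to 10441 for *Zeb2*. *Gm10125* overlaps *Zeb1* in the same way by 198 exonic bases and had 24 to 78 counts. The strand setting of the counting is not stated in the sources used here, and reads of such overlaps could have been assigned to either gene.

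The *Snai* genes, whose zinc finger proteins repress *Cdh1* and are turned over rapidly, were both lower. *Snai1* (ENSMUSG00000042821, chromosome 2 from 167538195 to 167542814) was at 65.0, 83.0 and 80.9 CPM in control and at 36.5, 40.3 and 22.1 CPM in senescent samples (log2 fold change -1.21 ± 0.21 SE, adjusted p = 0.00122 in edgeR). *Snai2* (ENSMUSG00000022676, chromosome 16 from 14705852 to 14709395) was at 64.4, 65.3 and 64.5 CPM in control and at 27.5, 25.4 and 33.3 CPM in senescent samples. Its level fell to a similar extent (log2 fold change -1.17 ± 0.10 SE, adjusted p = 2.24e-05 in edgeR). The spread between samples was not alike. The control values of *Snai2* varied by 0.797% (coefficient of variation, CV), those of *Snai1* by 12.9%, and the median over tested genes was 5.86%. Senescent replicate 3 was the lowest senescent sample for *Snai1* and the highest for *Snai2*.

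The *Prrx* genes encode paired-related homeobox proteins of limb and craniofacial mesenchyme. *Prrx1* (ENSMUSG00000026586, chromosome 1 from 163245119 to 163313710) had the highest counts of the 10 factors, with 370.1, 357 and 357 CPM in control and 389.6, 395 and 489 CPM in senescent samples. The lowest senescent value exceeded the highest control value, but *Prrx1* did not pass the threshold (log2 fold change 0.23 ± 0.092 SE, adjusted p = 0.0503 in edgeR). *Prrx1* was called when any 1 of the senescent replicates was left out, with log2 fold changes of 0.29, 0.29 and 0.13 without replicates 1, 2 and 3, and adjusted p of 0.0322, 0.0331 and 0.00331 in edgeR. *Prrx2* (ENSMUSG00000039476, chromosome 2 from 30834972 to 30881251) was at 73.9, 92.7 and 88.9 CPM in control and at 46.1, 51.0 and 26.0 CPM in senescent samples. It fell (log2 fold change -1.06 ± 0.23 SE, adjusted p = 0.00380 in edgeR). As for *Snai1*, control replicate 1 was the lowest control sample and senescent replicate 3 the lowest of all. Without control replicate 1 the log2 fold changes were -1.15 for *Prrx2* and -1.32 for *Snai1*.

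The *Twist* genes encode closely related bHLH proteins and moved in opposite directions. *Twist1* (ENSMUSG00000035799, chromosome 12 from 33957671 to 33959817) was at 37.3, 39.4 and 39.0 CPM in control and at 44.9, 48.9 and 51.9 CPM in senescent samples (log2 fold change 0.34 ± 0.070 SE, adjusted p = 0.00317 in edgeR). *Twist2* (ENSMUSG00000007805, chromosome 1 from 91801461 to 91848028) was at 6.01, 5.30 and 6.33 CPM in control and at 4.24, 4.39 and 3.67 CPM in senescent samples. *Twist2* thus fell (log2 fold change -0.52 ± 0.11 SE, adjusted p = 0.00385 in edgeR). Both changes were smaller than 2-fold, and in both genes the groups did not overlap. *Twist2* shares 1477 exonic bases with *Gm29100* on the opposite strand, which had 35 to 60 counts per library, against 235 to 348 for *Twist2*.

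*Tbx15*, a T-box gene of the dermis and skeleton, was lower in senescent cells. It lies on chromosome 3 from 99240381 to 99354259 (ENSMUSG00000027868) and was at 78.2, 77.1 and 79.0 CPM in control and at 57.1, 55.9 and 64.8 CPM in senescent samples. The decrease stayed within a 2-fold change (log2 fold change -0.40 ± 0.069 SE, adjusted p = 0.00118 in edgeR). *Tcf21*, a bHLH gene of visceral mesenchyme (ENSMUSG00000045680, chromosome 10 from 22817279 to 22820128), had 0 counts in every control sample and 3, 4 and 3 counts in senescent replicates 1, 2 and 3. A count of 0 allows up to 3 counts in a library, a level of 0.0502 to 0.0613 CPM in control samples, and the senescent mean of 0.0467 CPM lies below it. Both groups are thus at or near this floor, and no fold is given. *Tcf21* did not pass the filter on low counts, and without that filter it was called as higher in senescent cells (adjusted p = 0.0306 in edgeR). That call rests on at most 4 counts per library.

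**Figure D2:**
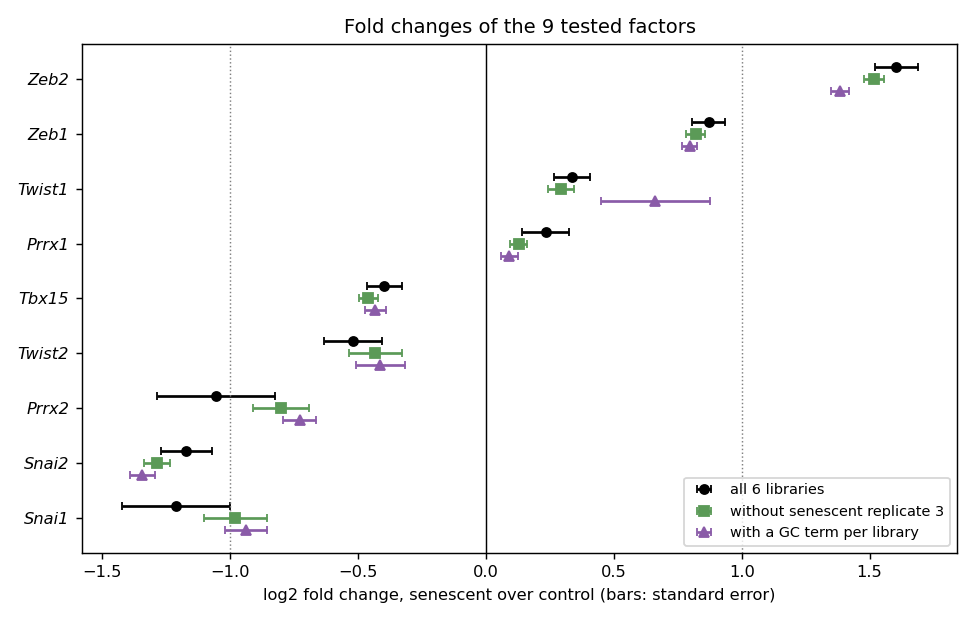
Log2 fold changes (horizontal axis, senescent over control, with standard errors) of the 9 tested factors from all 6 libraries, without senescent replicate 3, and with a GC term. Each factor keeps its direction in all 3 fits, and *Snai1* and *Prrx2* move inside the dotted 2-fold lines in the latter 2.

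The decreases of *Prrx2* and *Snai1* were under 2-fold without senescent replicate 3, and also with a GC term. That of *Prrx2* was close to the limit in other settings as well, with log2 fold changes of -0.98 after library size scaling and -0.99 without control replicate 2, and 3 factors were then past the study's threshold. *Prrx2* and *Snai1* have GC contents of 63.6% and 59.8%, and in senescent replicate 3 they stood at 53.5% and 57.5% of the mean of senescent replicates 1 and 2. Genes with a GC content of at least 60% were at a median of 64.7% there, and those from 55% to below 60% at 75.0%. Without this sample both factors still fell, *Prrx2* by 0.80 on the log2 scale (adjusted p = 0.000869 in edgeR) and *Snai1* by 0.98 (adjusted p = 0.000722 in edgeR), and *Snai2* was then the sole lower factor past a 2-fold change. *Twist1*, with a GC content of 59.3%, stood at 111% in this sample. The GC-poor factors *Zeb2*, *Snai2* and *Prrx1*, with GC contents of 40.6%, 42.6% and 43.65%, stood at 120%, 126% and 125% there. Genes below 45% were at a median of 119%. With a GC term per library, chosen after seeing these values, the log2 fold changes were -0.73 for *Prrx2*, -0.94 for *Snai1* and 0.66 ± 0.21 SE for *Twist1* (adjusted p = 0.0376 in edgeR), and that of *Prrx1* was 0.091 (adjusted p = 0.0304 in edgeR). With the same term, the log2 fold change of *Zeb2* was 1.38 in place of 1.60 and that of *Snai2* was -1.34 in place of -1.17. The 9 factors kept their directions with this term and without senescent replicate 3.

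Levels of different factors can be compared only per length of the transcript. The length in the table of counts was 11066 bases for *Prrx1*, over the exons of 5 annotated transcripts, and 1961 bases for *Prrx2*. Which transcripts these cells express was not measured, so the order of factors at similar levels depends on these lengths. Per kilobase of the length in the table of counts, *Snai1* was the highest in control cells, at 47.1 ± 6.06 CPM per kb (SD, n = 3), followed by *Prrx2* at 43.4 ± 5.07 CPM per kb. The ranges of these overlapped. *Prrx1* at 32.6, *Snai2* at 31.9, *Twist1* at 23.8, *Tbx15* at 20.8 and *Zeb1* at 9.70 CPM per kb came next and were each separate from their neighbours. *Twist2* and *Zeb2*, at 1.85 and 1.84 CPM per kb, overlapped. In senescent cells the order was led by *Prrx1* at 38.4 ± 5.05 and *Twist1* at 30.1 ± 2.17 CPM per kb (SD, n = 3). *Prrx2*, *Snai1*, *Zeb1*, *Tbx15* and *Snai2* followed between 20.9 and 14.1 CPM per kb, and each overlapped with the next. *Zeb2*, at 5.59 CPM per kb, was above *Twist2* at 1.29 CPM per kb, and *Tcf21* was last at 0.0382 CPM per kb. *Snai1* thus went from rank 1 to rank 4 and *Snai2* from rank 4 to rank 7, while *Twist1* went from rank 5 to rank 2.

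**Figure D3:**
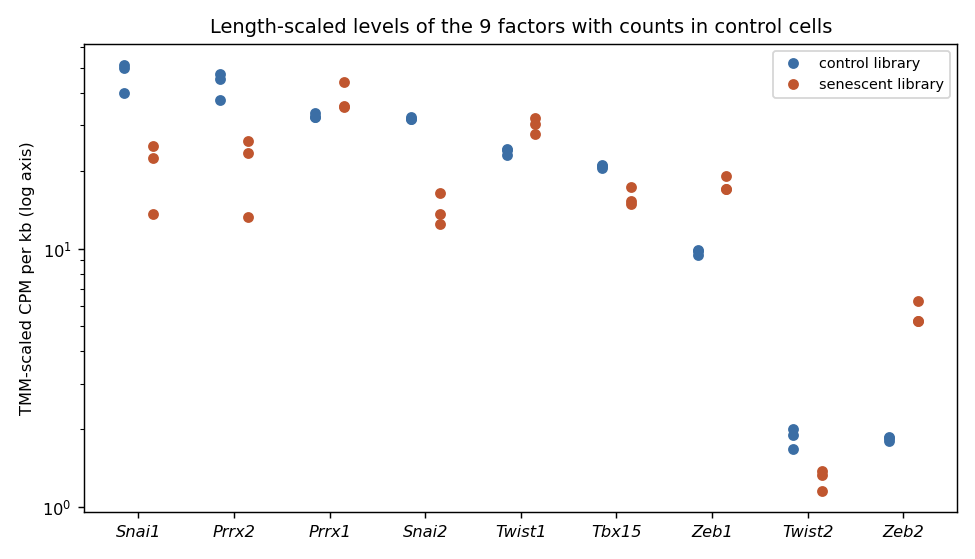
TMM-scaled CPM per kb (log axis) of the 9 factors with counts in control cells, in the order of their control means, with 1 point per library. *Snai1* and *Prrx2* lead in control libraries, and in senescent libraries *Prrx1* and *Twist1* do, while *Twist2* goes from a mean of 1.85 to 1.29 CPM per kb.

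The balance within each pair of related factors was compared as the log2 ratio of their CPM per kb in each library. *Prrx1*/*Prrx2* had ratios of -0.17, -0.55 and -0.49 in control and 0.58, 0.46 and 1.74 in senescent samples. At the lengths in the table of counts, *Prrx2* was the higher of the pair in every control sample and *Prrx1* in every senescent sample. Which of a pair is higher depends on these lengths, while the change in the ratio between groups does not. *Twist1*/*Twist2* went from a mean of 3.69 to 4.54 and *Zeb1*/*Zeb2* from 2.40 to 1.67. *Twist1* and *Zeb1* were the higher of their pairs in all samples. In these 3 pairs the groups did not overlap, with differences of 1.33, 0.85 and -0.73, and the exact two-sided permutation test of 3 samples against 3 gave its smallest possible p of 0.1 (0.133 after Benjamini-Hochberg adjustment over 4 ratios). The 1.33 of *Prrx1*/*Prrx2* includes the ratio of 1.74 in senescent replicate 3, the sample with fewer counts from GC-rich genes. For *Snai1*/*Snai2* the groups overlapped, at 0.55 ± 0.19 in control and 0.49 ± 0.67 in senescent samples (SD, n = 3 per group, exact permutation p = 1). The senescent ratios of this pair were 0.73, 0.99 and -0.27. Without senescent replicate 3 the difference was 0.31 in place of -0.068 and its direction was reversed.

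**Figure D4:**
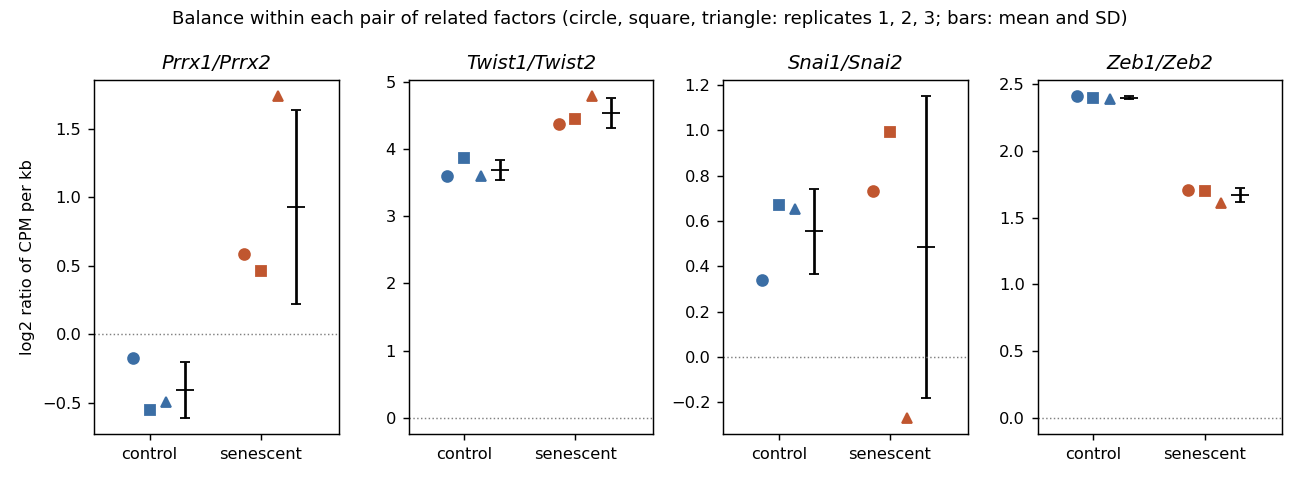
Log2 ratio of CPM per kb (vertical axes) within 4 pairs of related factors in each library, with the mean and SD of each group. At the lengths used, *Prrx1*/*Prrx2* crosses 0 between the groups, *Zeb1*/*Zeb2* falls with little spread, and *Snai1*/*Snai2* overlaps, with senescent replicate 3 apart at -0.27.

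Genes around the factors were described in 7 lists written for this purpose, to be read beside the 36.2% of all tested genes that were higher and the 34.1% that were lower. The genes named from them passed the test with an adjusted p of at most 0.00103 in edgeR. Among 9 bHLH partners and Id genes, whose Id products hold bHLH proteins away from DNA, 7 were tested, 4 were lower and 1 higher. *Tcf3*, which encodes an E protein that pairs with TWIST and TCF21, fell from 66.0 ± 8.82 to 25.6 ± 7.42 CPM (mean ± SD of 3 samples, as for the genes that follow; log2 fold change -1.37). *Id3* fell from 220.2 ± 20.1 to 96.9 ± 27.8 CPM (log2 fold change -1.18). For both, senescent replicate 3 was again lowest, at 17.2 and 65.3 CPM, and without it the log2 fold changes were -1.14 and -0.96. Of 14 corepressor and turnover genes, which carry out or limit the repression by Snail and ZEB proteins, 6 were lower and 2 higher, and none changed over 2-fold. Their median log2 fold change was 0.040, of the sign opposite to most calls.

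Genes of the TGF-β pathway, a known inducer of *Snai1*, *Zeb1* and *Zeb2*, were next. Of 14 tested, 9 were higher and 2 lower, with a median log2 fold change of 0.57. The 3 increases over 2-fold, a change that 17.8% of all tested genes showed in this direction, were in genes whose products damp the pathway. *Smurf2*, a ubiquitin ligase, rose from 112 ± 3.60 to 541 ± 44.6 CPM (log2 fold change 2.28). *Skil*, which encodes the corepressor SnoN, and *Smad7*, an inhibitory Smad, had log2 fold changes of 1.91 and 1.79. The adjusted p of these 3 genes was at most 8.23e-07 in edgeR.

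Of 22 epithelial genes known to be repressed in EMT, 11 had enough counts for a test, 8 were higher and 2 lower. Genes that pass the filter through senescent samples alone had to differ, so this count is not read as a shift of the list. Most levels were low. *Cdh1*, which encodes E-cadherin, rose from 0.477 ± 0.108 to 1.91 ± 0.165 CPM (log2 fold change 1.98). *Dsp* (desmoplakin) rose from 0.110 ± 0.0472 to 7.09 ± 0.412 CPM, and *St14*, a membrane serine protease, from 0.247 ± 0.0166 to 2.33 ± 0.524 CPM. The keratin genes *Krt19* and *Krt8* fell, with log2 fold changes of -2.36 and -1.90. *Krt19* was the most abundant gene of the list in control cells, at 26.4 ± 2.54 CPM, and was at 5.18 ± 1.22 CPM in senescent cells. Beside these values, keratinocyte markers summed to 38.3 to 38.5 CPM in control and 89.2 to 97.5 CPM in senescent samples. Most of that rise was in *Perp*, a desmosome gene, at means of 14.6 and 71.2 CPM. The other 9 markers summed to 23.3 to 24.2 CPM in control and 17.7 to 22.7 CPM in senescent samples. That sum holds changes in both directions. *Krt15* rose from a mean of 0.0784 to 5.33 CPM, and *Trp63* fell from 13.1 to 4.17 CPM. Of the keratinocyte markers, 3 were higher and 1 lower, *Krt1* had at most 4 counts in any library, and *Krt5* did not pass the test (adjusted p = 0.0925 in edgeR). *Cdh1* stands in both lists, and the part of keratinocytes in these values was not tested.

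The mesenchymal genes split. Of 25 tested of 26, 10 were higher and 12 lower, with a median log2 fold change of -0.058, and 8 of the 26 also stood among the fibroblast markers. *Dcn* (decorin) rose from 56.6 ± 0.376 to 642 ± 65.2 CPM, and *Cdh11* (cadherin 11) had a log2 fold change of 2.06. The collagen gene *Col3a1* fell from 3895 ± 115 to 971 ± 93.3 CPM. *Col1a2* and *Sparc*, which encodes a collagen-binding matrix protein, had log2 fold changes of -1.87 and -1.10.

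Among 27 other transcription factors of limb, craniofacial and dermal mesenchyme, 22 were tested, 14 were higher and 6 lower, with a median log2 fold change of 1.07. Of the 14 increases, 12 were over 2-fold, where 17.8% of all tested genes were higher past a 2-fold change (p under 0.05 before adjustment in edgeR). In 3 of the tested genes no control library exceeded 3 counts. *Msx2*, a homeobox gene, rose from 2.30 ± 0.0652 to 7.85 ± 0.174 CPM. *Foxf2* and *Nr2f1* had log2 fold changes of 1.72 and 1.09. *Osr1*, a zinc finger gene of limb mesenchyme, fell from 38.7 ± 3.23 to 19.0 ± 3.49 CPM, and its log2 fold change of -1.02 was -0.87 without senescent replicate 3. Of 16 further genes from the families of the 10 factors, 10 had too few counts for a test, 1 of them with none in any library. The 6 tested were higher in senescent cells and were at low levels in control cells, so their count is given without a reading. Their median log2 fold change was 3.34, or 2.87 with 1 gene that was near 0 in control cells set to its bound. *Tbx18* went from 1.03 ± 0.134 to 3.89 ± 0.249 CPM, *Tbx20* from 0.0966 ± 0.0280 to 1.33 ± 0.188 CPM and *Tcf24* from 0.106 ± 0.0406 to 1.37 ± 0.360 CPM.

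**Figure D5:**
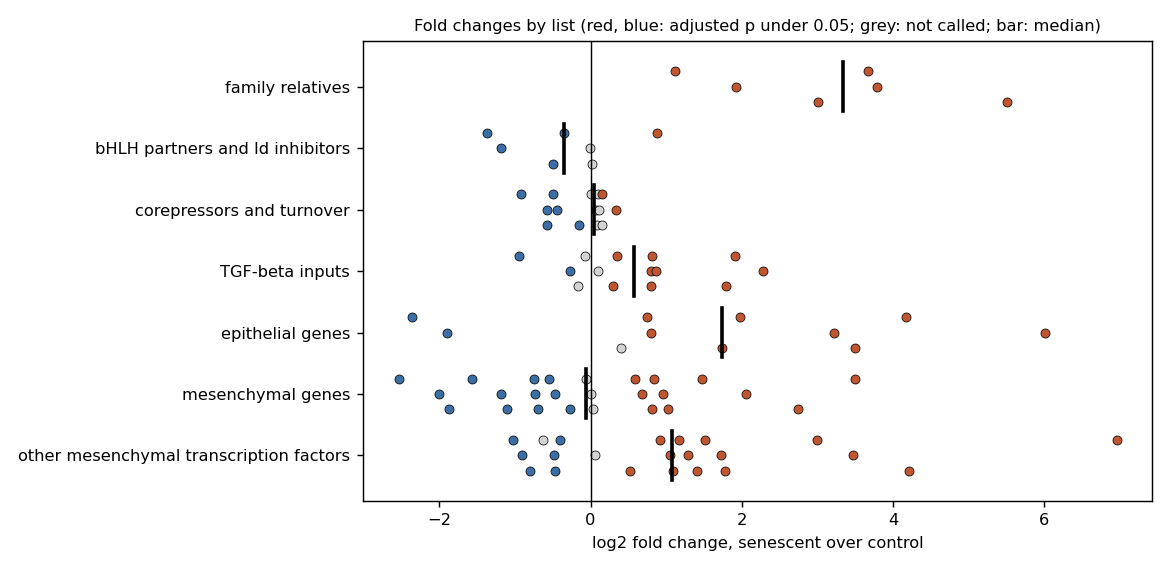
Log2 fold changes (horizontal axis) of the tested genes of 7 lists, with 1 point per gene, colored where the adjusted p was under 0.05 and grey elsewhere, and a bar at the median. TGF-β inputs and other mesenchymal transcription factors lie mostly above 0, with medians of 0.57 and 1.07, while mesenchymal genes spread to both sides with a median of -0.058.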

How the data were processed

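Counts per gene are the authors' own, made with STAR alignment to mm10 and Subread, and were deposited raw. The strand setting and the handling of multi-mapping reads are not given in the sources used here. The function filterByExpr retained 17589 genes. After TMM scaling, the 3 control and 3 senescent samples were compared with the robust quasi-likelihood test of edgeR 4.0.16 in R 4.3.3, two-sided, with Benjamini-Hochberg adjustment over all tested genes. Standard errors are the log2 fold change divided by the square root of F. Ratios within pairs used a prior of 0.5 counts. Floors cover counting error alone.

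The factors, lists and tests were chosen with earlier results of these data known. The lists were written from general knowledge. Named were the 10 factors, up to 3 genes per list and direction with the smallest p past a 2-fold change, and up to 2 defining markers per cell type. Of these, 1 is not reported here. *Zeb2os*, *Gm10125*, *Gm29100*, *Perp*, *Krt15*, *Trp63*, *Sox10*, *Cldn5*, *Pax7*, *Myf5*, *Col6a1*, *Fap*, *Thy1* and *Lum* were chosen after their values were seen. Alternatives were RLE and library size scaling, no filter, DESeq2 1.42.0, the exact test of edgeR, a minimum of 10 counts per library, a term for the replicate number, each library left out, and the exon lengths of GENCODE M21. A GC term per library (lowess, span 0.3) was added after seeing the data. On simulated data, the test recovered 93 of 100 genes changed by 1 and 95 of 100 changed by 2 on the log2 scale among 17243 genes, with 10 false calls. For 17222 genes with a simulated GC trend, the GC term reduced its slope from -0.44 to -0.0053 (log2 per 10 percentage points). Comparison of the proteins of related factors was not done here.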

Additional observations from a re-analysis of the deposited data

How the results depend on the processing

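Under the 7 alternatives of scaling, filter, test and replicate term, with each library left out and with the GC term, the 9 tested factors kept their direction and 8 of them their call. *Prrx1* was the exception. It passed an adjusted p of 0.05 with RLE scaling (log2 fold change 0.25), library size scaling (0.31), no filter (0.22), DESeq2 (0.25), the exact test of edgeR (0.23), a minimum of 10 counts per library (0.28) and the GC term (0.0913), and without any 1 senescent replicate. It did not pass with the replicate term (0.23) or without any 1 control replicate, and its log2 fold changes with 1 library left out were from 0.13 to 0.29. Without a filter, 5 factors were higher, since *Tcf21* and *Prrx1* were then called. Of these 5, *Zeb2* and *Tcf21* were the 2 past a 2-fold change, the latter with at most 4 counts per library. Factors past the study's threshold numbered from 2 to 4 with 1 library left out (2 without senescent replicate 3, 3 without control replicate 2), the lower ones from 1 to 3, and with the GC term there were 2, of which 1 was lower. The *Snai1*/*Snai2* difference was from -0.32 to 0.31 with 1 library left out. The replicate term left 8 factors called, 3 higher and 5 lower, and changed no call of a factor. Deviations of samples with the same number correlated at -0.15, 0.14 and -0.12, and not every sample correlated best with its own number. These are deviations from means of 3 samples, and senescent replicate 3 stood apart, so they cannot decide whether the numbers pair the samples. Among the lists, family relatives higher were 10 without a filter and 2 with at least 10 counts in every library, and epithelial genes higher were 5 with the latter. Corepressor and turnover genes higher were 1 without a filter, with the exact test and with the replicate term, 4 with the GC term, and from 1 to 4 with 1 library left out (4 without senescent replicate 3). With the exon length of GENCODE M21, *Tcf21* was at 0.0199 CPM per kb in senescent cells. With at most 4 counts per library, depth limits what can be said of *Tcf21*.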
